A study of Homo sapiens with 6 samples.

Results

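OGFR encodes the opioid growth factor receptor, OGFRL1 encodes its paralog and PENK encodes proenkephalin, the precursor of its peptide ligand. Rows were matched to these 3 genes by Ensembl identifier, and OGFR (ENSG00000060491) and OGFRL1 (ENSG00000119900) were found among the 30735 genes of the tables used here. No row carried the PENK identifier, so PENK was not analysed here. Every gene in these tables was above 0 in at least 1 sample. RNA-seq had been run on PANC-1, an established human pancreatic ductal adenocarcinoma line, after Lipofectamine 3000 transfection with CD73 siRNA in 3 samples and with the negative control in the other 3. The study describes separate knockdown experiments in this 1 line and names 1 catalogue item as the CD73 siRNA, so an effect of its sequence on other transcripts and the loss of CD73 cannot be told apart. OGFR was selected on its difference between the groups in the same 6 samples, which was among the largest, so its values are given as a description, with no test, while OGFRL1 and PENK were taken for their relation to it.

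The opioid growth factor is met-enkephalin, a short peptide cut from proenkephalin, which also signals through the classical opioid receptors at the cell surface. OGFR shares no sequence relationship with those G protein-coupled receptors. It is associated with the nucleus, and the peptide-receptor complex is carried through the nuclear pore by the importin and Ran system. There it slows the passage from G1 to S phase through cyclin-dependent kinase inhibitors. This axis has been studied as a brake on the growth of pancreatic cancer cells. OGFR is also found on widely used lists of interferon-response genes.

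In hg38, the build that the submitters' processing notes name, and in the GENCODE release 29 annotation of GRCh38, OGFR occupies chromosome 20 from 62804835 to 62814000 on the forward strand. It spans 9166 bp, with 4 annotated transcripts and 4702 bp of merged exons. OGFRL1, also on the forward strand, occupies chromosome 6 from 71288803 to 71308950, spans 20148 bp and has 3 annotated transcripts and 9075 bp of merged exons. The RefSeq promoter windows of both genes, from 250 bases before to 50 after the start, were rich in G and C, with 77.7% in OGFR and 81.0% in OGFRL1 against a median of 58.7% over all promoters. The OGFR window held 1 core of the interferon-stimulated response element (GAAA followed by any 2 bases and GAAA again, searched on both strands), beginning 22 bases before the start. It is shown with its flanks at chr20:62804803-62804832 on the forward strand (GRCh38.p14), with the match in capitals.
OGFR promoter: cttcctctgcTTTCGGTTTCgcttccgcct
The same core was in 3.57% of the 35116 promoter windows of this length, and the OGFRL1 window held none. It was also in 3.57% of the 9091 tested genes whose promoter could be matched by symbol. It was in 10 of 163 genes called higher after CD73 siRNA (6.13%) and in 7 of 121 called lower (5.79%), a comparison made without a test. The called genes come from the same 6 samples from which OGFR was picked. OGFR holds the core and was selected on its difference, so its place among the higher genes was set by that choice. The share of 6.13% is therefore not independent of OGFR. None of the 5 genes with the pattern most like OGFR over the 6 samples (HABP4, ZNF664, PRMT6, PLA2G12A and TLK2) held it (0 of 5). The GC box (GGGCGG, both strands) was the motif that both windows shared, at 5 positions in OGFR, a pair of which overlap, and 4 in OGFRL1, and it was in 45.0% of all windows. The share of 45.0% is over windows of all base compositions. The OGFR window exceeds 94.6% of promoters in G and C content and the OGFRL1 window 98.2%. A single GC box from each gene is printed as an example, and a link to the values of the 2 genes was not tested.
OGFR promoter, chr20:62804743-62804772, GRCh38.p14, forward strand: gcgcgcggacgcGGGCGGggcctgggccgc
OGFRL1 promoter, chr6:71288711-71288740, GRCh38.p14, forward strand: aaggagccggatGGGCGGgttcaggcgcgc
Neither window held an AP-1 element (TGANTCA, 7.71% of windows), a cAMP response element (TGACGTCA, 1.85%) or a CCAAT box (CCAAT, 34.6%). These are letter matches and were not read as binding sites.

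The groups did not overlap for the targeted gene, as in 8.07% of all tested genes in this direction. NT5E, which encodes CD73, was at 3.36, 6.85 and 8.22 RPKM (reads scaled to exon length and library size) in CD73 siRNA replicates 1, 2 and 3 and at 14.0, 13.9 and 17.1 RPKM in the negative controls. Library totals derived from the values lay between 15009113 and 16836207 reads. The 12527 genes that reached 1 RPKM in 3 or more samples entered a limma fit of log2(RPKM + 1), and a gene was called at an unadjusted p below 0.01. This called 392 genes, or 3.13% of those tested, 1.82% as higher and 1.31% as lower, and 1 gene (0.00798%) had an adjusted p below 0.05. That gene was a Y RNA (ENSG00000207342) with 3 reads in each CD73 siRNA sample and 0 in each control. NT5E was among the genes called lower, with a log2 fold change of -1.23 (SE 0.26, adjusted p = 0.303 from limma). Its mean after CD73 siRNA was 41.0% of that in controls. With the replicate number as a block, 7.57% were called. The count of 392 became 110 without CD73 siRNA replicate 1, 181 without negative control replicate 1, 791 without negative control replicate 2, and 254 without negative control replicate 3. Of 7 ductal epithelial markers, KRT8 and KRT18 were the most abundant at 105 ± 46.6 and 70.4 ± 15.3 RPKM in controls (SD, n = 3), while KRT7, a keratin of ductal cells, was at or below 0.107 RPKM. Of the 6 markers tested, KRT8 (-1.27) and KRT18 (-0.68) were called lower and the other 4 did not pass. These were KRT19 at -0.26, EPCAM at 0.03, MUC1 at 0.08 and CDH1 at -0.12 on the log2 scale. The 7 markers summed to between 72.8 and 105 RPKM in CD73 siRNA samples and between 138 and 255 RPKM in controls, a sum made up mostly of KRT8 and KRT18, and its part in the results on OGFR was not tested. Of 8 acinar and islet markers 3 had a row, and their sum was at most 0.129 RPKM in any sample. Of 9 leukocyte, endothelial and stromal markers 7 had a row, and their sum was at most 0.393 RPKM. In bulk samples, a change in the number of cells that express a gene and a change in its RNA per cell cannot be told apart.

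OGFR mRNA was 2.7 times as abundant after CD73 siRNA as in the negative controls. It was at 12.7, 12.3 and 11.5 RPKM in CD73 siRNA replicates 1, 2 and 3 and at 3.25, 6.27 and 4.01 RPKM in negative control replicates 1, 2 and 3. The groups did not overlap, and the lowest CD73 siRNA sample was well above control replicate 2, the highest of the controls. These values rested on 245 to 962 reads per sample. The mean was 12.2 ± 0.609 RPKM after CD73 siRNA and 4.51 ± 1.57 RPKM in controls (SD, n = 3 each), and the knockdown samples lay closer to each other than the controls did. The mean log2 difference was 1.29 with a standard error of 0.19. Of all tested genes, 10.3% had all 3 knockdown samples above all 3 controls.

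Within the replicate numbers of the labels, the log2 difference of OGFR was 1.69 in replicate 1, 0.87 in replicate 2 and 1.32 in replicate 3. The pair numbered 2 gave the smallest difference because its control was the highest, while its knockdown sample lay between the other two. All 3 pairs were higher in 27.0% of the tested genes, and by at least 0.5 in each pair in 43 of 12527 genes. The cut of 0.5 was not among the planned settings. OGFR was selected on its difference, so its place among the 43 is description only.

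OGFR ranked 8th of 12527 tested genes by the mean log2 difference and 24th by the ratio of mean RPKM. By the log2 difference within replicate numbers 1, 2 and 3 it ranked 23rd, 82nd and 30th. By the smallest difference of the 3 pairs it ranked 3rd, behind a Y RNA gene (ENSG00000207342) with at most 3 reads in any sample and ISCA1P4, a pseudogene with at most 14 reads. The rank depended on the weight given to low genes. With a pseudocount of 0.1 in place of 1, OGFR ranked 40th, and among the 7394 genes with a mean of at least 5 RPKM it ranked 2nd with a pseudocount of 1 and 3rd with 0.1. It ranked 14th without negative control replicate 1 and 16th without negative control replicate 3. TPM4, an actin-binding tropomyosin, was the single gene above it among those of at least 5 RPKM, with a log2 difference of 1.33 at a mean of 35.2 RPKM after CD73 siRNA. By level, OGFR stood at rank 7707 of 12527 in the controls and at rank 4073 after CD73 siRNA. It moved from below the median tested gene to above it.

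The 3 genes just above OGFR in the order of the mean log2 difference were SNORD99 (1.33), RNU7-47P (1.31) and PALM3 (1.30). SNORD99 is a small nucleolar RNA and RNU7-47P a small nuclear RNA pseudogene, and both had at most 10 reads in any sample. PALM3 encodes a paralemmin and had between 33 and 268 reads. The 3 just below were ZNF664 (1.28), ENSG00000248126 (1.27) and MT1DP (1.22). ZNF664 encodes a zinc finger protein and had between 789 and 3783 reads, while MT1DP, a metallothionein pseudogene, had at most 7 and ENSG00000248126 at most 28. OGFR and ZNF664 were thus the better covered genes in this stretch of the ranking.

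**Figure D1:**
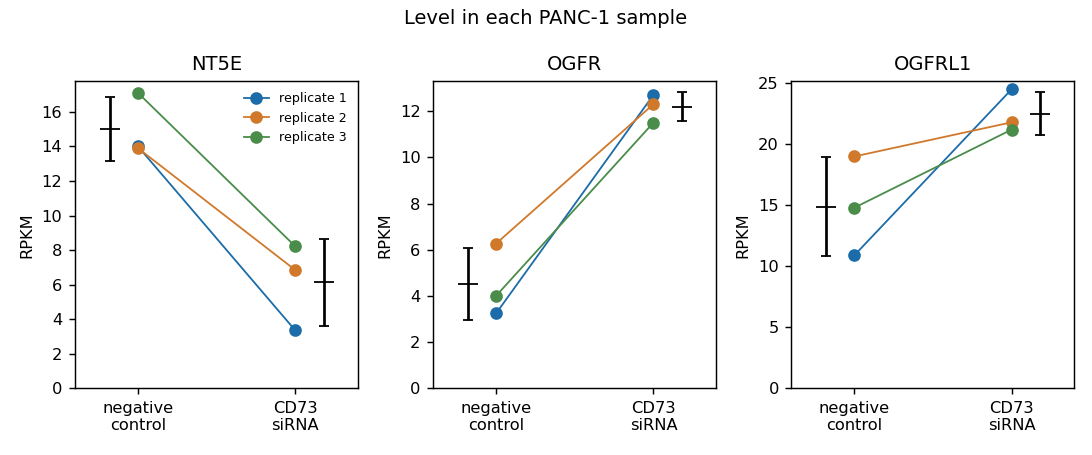
RPKM (vertical axis, from 0) of NT5E, OGFR and OGFRL1 in the 3 negative control and 3 CD73 siRNA samples, with lines joining samples of the same replicate number and black bars giving the mean ± SD of each group. NT5E is lower and OGFR and OGFRL1 are higher after CD73 siRNA in every pair, and control replicate 2 is the highest control for OGFR and OGFRL1.

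**Figure D2:**
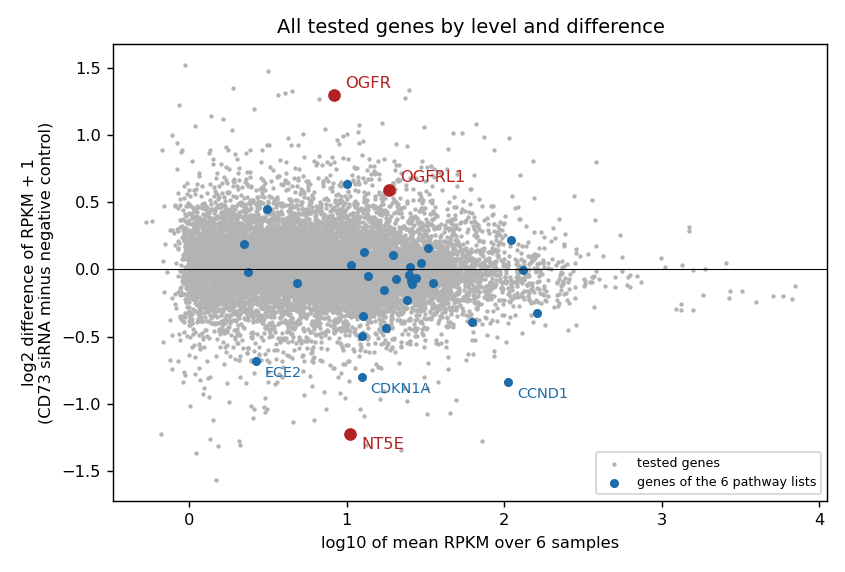
Mean log2 difference of RPKM + 1 (vertical axis, CD73 siRNA minus negative control) against the log10 of the mean RPKM over 6 samples (horizontal axis) for the 12527 tested genes, with the genes of the 6 pathway lists in blue and OGFR, OGFRL1 and NT5E in red. OGFR lies at 1.29, and most of the points above it are at lower mean levels.

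The paralog OGFRL1 carries the OGFR-like domain without a well established ligand. It was at 24.5, 21.8 and 21.2 RPKM in CD73 siRNA replicates 1, 2 and 3 and at 10.9, 19.0 and 14.8 RPKM in negative control replicates 1, 2 and 3. The groups did not overlap, as in 10.3% of all tested genes in this direction, although control replicate 2 lay close to the lowest knockdown sample. The means were 22.5 ± 1.75 and 14.9 ± 4.02 RPKM (SD, n = 3 each), with 1590 to 3571 reads per sample. The log2 fold change was 0.59 (95% interval 0.18 to 1.01, SE 0.18) (adjusted p = 0.321 from limma), and its unadjusted p was just short of the threshold. The exact permutation test gave p = 0.1, the smallest that 3 samples against 3 allow. The same fold change was just past the threshold with the replicate block (adjusted p = 0.131). Without negative control replicate 2 it was 0.77 and also past the threshold (adjusted p = 0.0851). By replicate number, OGFRL1 differed by 1.10, 0.20 and 0.49 on the log2 scale, so the pair numbered 2 was nearly level.

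OGFRL1 was the more abundant paralog per length of exon in all 6 samples. OGFR stood at 29.7%, 33.1% and 27.2% of the RPKM of OGFRL1 in negative control replicates 1, 2 and 3. After CD73 siRNA it stood at 52.0%, 56.2% and 54.5% in the same order. These ranges did not overlap, and OGFR had the larger log2 difference in each pair. This ratio contains the values for which OGFR was picked and was not tested. The longest transcripts of the paralogs lay at opposite ends of base composition, with 63.5% G and C in OGFR and 35.6% in OGFRL1. Among the 1251 tested genes in the same decile of G and C content as OGFR the median difference was -0.04, and in the decile of OGFRL1 it was 0.04. The part of base composition in the values of the 2 genes was not tested.

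Both genes overlap an antisense annotation. OGFR-AS1 (ENSG00000229873) runs on the opposite strand from 62800627 to 62805587 on chromosome 20, and 753 bases lie within both genes, of which 0 were exonic in both. Its 3 to 5 reads per sample gave 0.401 ± 0.0577 RPKM after CD73 siRNA and 0.388 ± 0.109 RPKM in controls (SD, n = 3 each), and the groups overlapped. OGFRL1 overlaps the noncoding gene AL589935.1, which had 6 to 9 reads per sample. The strand setting of the count is not given in the sources used here, so sense and antisense reads could not be separated, but neither partner held more than 9 reads in any sample.

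The genes around OGFR had smaller differences. OGFR was selected on its difference, so smaller ones were likely for its neighbours whatever their position. Of 18 tested genes whose start coordinates lay within 500 kb of that of OGFR, limma called 0 at p below 0.01 (3.13% of all tested genes) and 2 were below 0.05 (12.1% of all tested genes). Their log2 fold changes ran from -0.38 to 0.45 with a median of 0.00, against 0.01 over all tested genes. MRGBP, which encodes a subunit of a histone acetyltransferase complex, begins at -8.4 kb from the start of OGFR and was at 25.4 ± 0.944 RPKM after CD73 siRNA and 22.1 ± 2.4 RPKM in controls (SD, n = 3 each), with overlapping groups and an adjusted p of 0.491 from limma. COL9A3, which encodes a collagen chain of cartilage, begins 11.4 kb beyond the start of OGFR and was at 10.8 ± 0.23 RPKM against 10.1 ± 1.16 RPKM in controls (SD, n = 3 each; adjusted p = 0.755). In the fit with the replicate block, 1 of the 18 passed the threshold (7.57% of all tested genes did). It was CABLES2, at -416.2 kb from OGFR, which differed by 0.45 on the log2 scale (adjusted p = 0.119 in that fit).

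Around OGFRL1, 4 neighbours were tested and 1 fell, against 1.31% of all tested genes called lower. It was MIR30C2, which encodes a microRNA of the miR-30 family and lies on chromosome 6 from 71376960 to 71377031, within LINC00472 on the same strand. It was at 7.78, 6.18 and 6.6 RPKM in CD73 siRNA replicates 1, 2 and 3 and at 9.53, 12.5 and 9.25 RPKM in the controls, with 7 to 14 reads per sample over a gene of 72 bp. Its groups did not overlap, as in 8.07% of all tested genes in this direction, and the log2 fold change was -0.54 (SE 0.14, adjusted p = 0.303 from limma). The call was lost without CD73 siRNA replicate 2 (-0.47), CD73 siRNA replicate 3 (-0.52) or negative control replicate 2 (-0.41). Whether these reads came from the mature microRNA, its precursor or the host transcript was not tested. LINC00472 itself differed by 0.13 on the log2 scale (SE 0.18, adjusted p = 0.791).

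**Figure D3:**
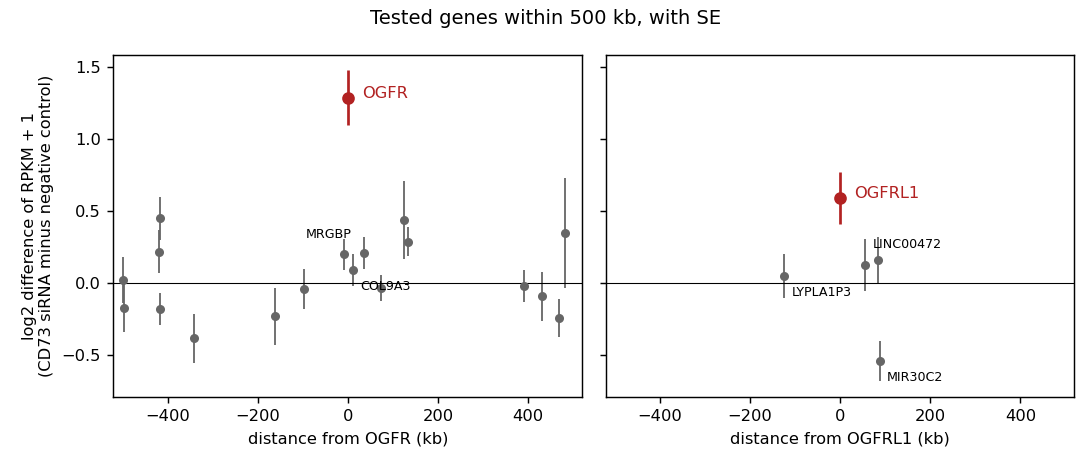
Log2 difference of RPKM + 1 (vertical axis, CD73 siRNA minus negative control, bars give the standard error) of the tested genes within 500 kb of OGFR (left) and OGFRL1 (right) against the distance between start coordinates in kb. OGFR, which was selected on its difference, lies at 1.29, and the highest value of its 18 tested neighbours is 0.45. MIR30C2 is the lowest point at -0.54.

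The other genes of the pathway were taken from 6 lists by role. Of 45 genes listed, 39 had a row and 30 were tested. At p below 0.01, limma called 4 of the 30 lower (13.3%, against 3.13% of all tested genes in either direction), 0 higher, and 26 did not pass. The median log2 fold change of the 30 was -0.06, against 0.01 over all tested genes, and 0 of them had an adjusted p below 0.05. The 4 called genes were ECE2, CDKN1A, CDKN1B and CCND1. Without CD73 siRNA replicate 1 the count was 1. The replicate block gave 9 (against 7.57% of all tested genes), of which 8 were lower and 1, CDK6, was higher.

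None of the 4 opioid peptide precursors (PENK, PDYN, POMC and PNOC) had a row to analyse. The opioid receptor family was low. OPRL1, the receptor for nociceptin and not for enkephalins, was its most abundant member and the only one tested, at 2.61, 2.02 and 2.63 RPKM after CD73 siRNA and 2.37, 1.58 and 2.07 RPKM in the controls. These groups overlapped, with a log2 difference of 0.19 (SE 0.15) and an adjusted p of 0.631 from limma. OPRD1, the delta receptor, which binds enkephalins with high affinity, was under the filter at 0.572, 0.727 and 0.972 RPKM against 0.387, 0.475 and 0.463 RPKM. Every knockdown value was above every control value (exact permutation test, p = 0.1), with 58 to 153 reads per sample. The same held for 10.3% of all tested genes. OPRM1, the mu receptor, had at most 1 read in any sample, and OPRK1, the kappa receptor, at most 2.

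Of 7 enkephalin processing genes 6 had a row and 3 were tested. None passed the threshold, and 0 of the 3 were below 0.05. The convertase gene PCSK1 had at most 1 read in any sample, and CPE, which encodes the carboxypeptidase that trims the cut peptides, had 0.531 ± 0.22 and 0.494 ± 0.26 RPKM (SD, n = 3 each). RNPEP, an aminopeptidase, was the most abundant over all 6 samples, at 24.6 ± 3.85 RPKM after CD73 siRNA and 25.2 ± 3.01 RPKM in controls (SD, n = 3 each). CTSL, cathepsin L, was at 22.3 ± 1.24 and 26.3 ± 2.9 RPKM.

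Of 8 genes for enkephalin-degrading enzymes 6 were tested and 1 fell (16.7%, against 1.31% of all tested genes called lower). ECE2, an endothelin-converting metallopeptidase, was at 1.54, 2.04 and 1.81 RPKM after CD73 siRNA and 4.46, 2.78 and 3.32 RPKM in the controls. The groups did not overlap, as in 8.07% of all tested genes in this direction. The log2 fold change was -0.68 (SE 0.16) with an adjusted p of 0.303 from limma. The call was lost without CD73 siRNA replicate 1, where the fold change was -0.61. Its relative ECE1 was the most abundant of the list at 34.6 ± 4.7 RPKM after CD73 siRNA and 30.8 ± 1.87 RPKM in controls (SD, n = 3 each), and it differed by 0.16 on the log2 scale (adjusted p = 0.623). MME, which encodes neprilysin, had at most 7 reads in any sample. ANPEP, aminopeptidase N, differed by -0.35 on the log2 scale (adjusted p = 0.377) and passed the threshold under the block (adjusted p = 0.127).

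KPNA2, of the nuclear import list, was the most abundant pathway gene in the controls. Of 13 nuclear import genes 12 were tested, limma called 0 at p below 0.01, and 3 were below 0.05, against 12.1% of all tested genes. KPNA2, an importin alpha, was at 144 ± 5.45 RPKM after CD73 siRNA and 181 ± 23.3 RPKM in controls (SD, n = 3 each), which is -0.32 on the log2 scale (SE 0.11, adjusted p = 0.356). It passed the threshold under the block (adjusted p = 0.119) and without negative control replicate 2 (-0.40, adjusted p = 0.151). RANGAP1, the activator of the Ran GTPase, differed by -0.39 (adjusted p = 0.342) and also passed under the block (adjusted p = 0.12). KPNA5, another importin alpha and the other gene below 0.05, was at 4.92, 3.88 and 2.61 RPKM after CD73 siRNA and 2.34, 2.78 and 2.27 RPKM in the controls. Its groups overlapped, and it differed by 0.45 (SE 0.19, adjusted p = 0.395). KPNB1, the importin beta that pairs with the importin alphas, was at 119 ± 5.16 RPKM after CD73 siRNA and 102 ± 13.5 RPKM in controls (SD, n = 3 each), and its adjusted p was 0.481. RAN was at 132 ± 6.19 and 132 ± 0.501 RPKM (SD, n = 3 each).

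Of 9 genes on the G1 arrest list 8 were tested and 3 fell (37.5%, against 1.31% of all tested genes called lower). The list held inhibitors as well as cyclins and kinases that drive the transition. Without moderation 0 of the 8 passed the threshold. CDKN1A, the cyclin-dependent kinase inhibitor through which the receptor is described to act, was at 8.14, 9.79 and 8.14 RPKM after CD73 siRNA and 20.3, 12 and 16.2 RPKM in the controls. The groups did not overlap, as in 8.07% of all tested genes in this direction. The log2 fold change was -0.80 (SE 0.18) with an adjusted p of 0.303 from limma. Without CD73 siRNA replicate 1 it was -0.76 and just short of the threshold. CDKN1B, a second inhibitor of the same family, was at 14.9 ± 0.38 and 20.6 ± 2.92 RPKM (SD, n = 3 each), or -0.43 on the log2 scale (adjusted p = 0.305). This call was lost when CD73 siRNA replicate 1 (-0.45), 2 (-0.42) or 3 (-0.43) or negative control replicate 1 (-0.33) was left out.

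CCND1, which encodes cyclin D1, was at 75.5, 76.9 and 72.1 RPKM after CD73 siRNA and 180.0, 104.0 and 129.0 RPKM in the controls. It fell by 0.83 on the log2 scale (SE 0.18, adjusted p = 0.303 from limma), with no overlap of the groups (8.07% of all tested genes in this direction). The inhibitors and the cyclin that drives the same transition were thus both lower. CDK6, a partner of cyclin D1, differed by 0.64 on the log2 scale (adjusted p = 0.357) and RB1, the retinoblastoma gene, by -0.50 (adjusted p = 0.342), both past the threshold under the block (adjusted p = 0.119 and adjusted p = 0.113). CDK2 (-0.05), CDK4 (-0.06) and CCNE1 (-0.15) had overlapping groups and did not pass in the main fit or under the block. CDKN2A, the other inhibitor tied to OGFR, had no row to analyse.

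**Figure D4:**
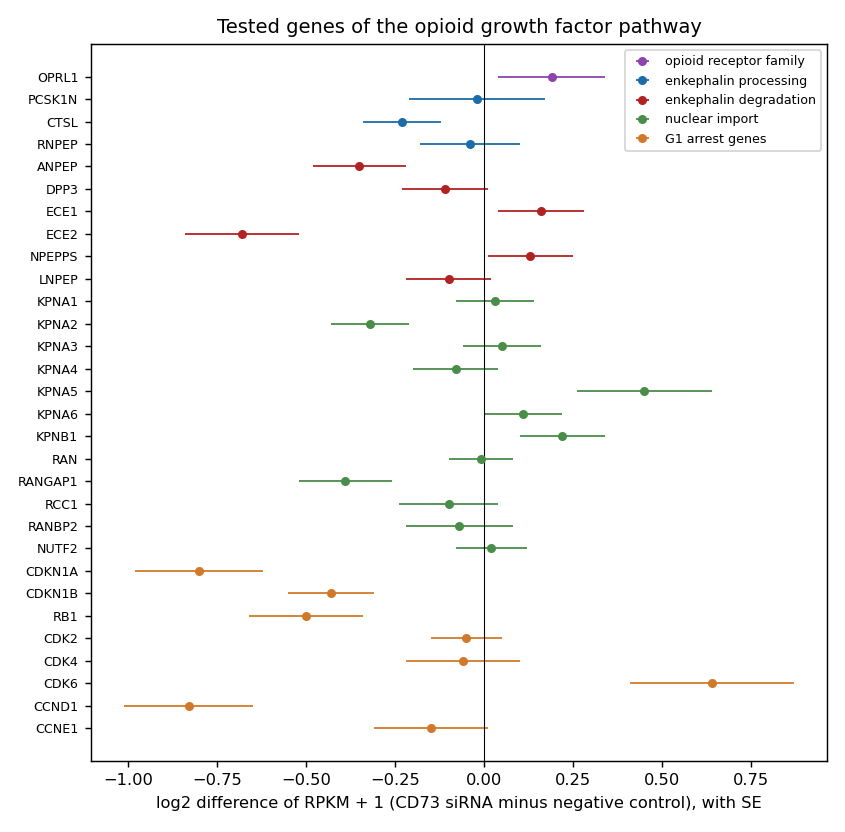
Log2 difference of RPKM + 1 (horizontal axis, CD73 siRNA minus negative control, bars give the standard error) of the 30 tested genes of the pathway lists, coloured by list. ECE2, CDKN1A, CDKN1B and CCND1, the 4 called genes, all lie left of 0, at -0.68, -0.80, -0.43 and -0.83.

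The pattern of OGFR over the 6 samples was compared with that of 12322 other tested genes of at least 1 RPKM on average. Likeness was the root mean square difference of log2(RPKM + 1) after centring each gene on its own mean, so that a smaller value means a closer pattern. The 5 closest were HABP4 (0.169), ZNF664 (0.183), PRMT6 (0.188), PLA2G12A (0.190) and TLK2 (0.194). HABP4 encodes a hyaluronan-binding protein, PRMT6 an arginine methyltransferase, PLA2G12A a secreted phospholipase and TLK2 a kinase of chromatin assembly. OGFRL1 was at 0.36, rank 108, and the median gene at 0.70. The same 5 genes were closest with a pseudocount of 0.1 and with median-ratio scaling.

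These genes were found by their values and are a description. HABP4 was at 12.5, 13.7 and 12 RPKM after CD73 siRNA and 4.41, 9.02 and 5.06 RPKM in the controls. TLK2 was at 12.6, 11.8 and 11.3 RPKM against 4.35, 7.46 and 5.84 RPKM. In all 5, as in OGFR and OGFRL1, control replicate 1 was the lowest sample and control replicate 2 the highest of the controls. In all 5 the groups did not overlap, as in 10.3% of all tested genes in this direction. The 5 were chosen for likeness to OGFR, so neither feature is a separate finding.

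**Figure D5:**
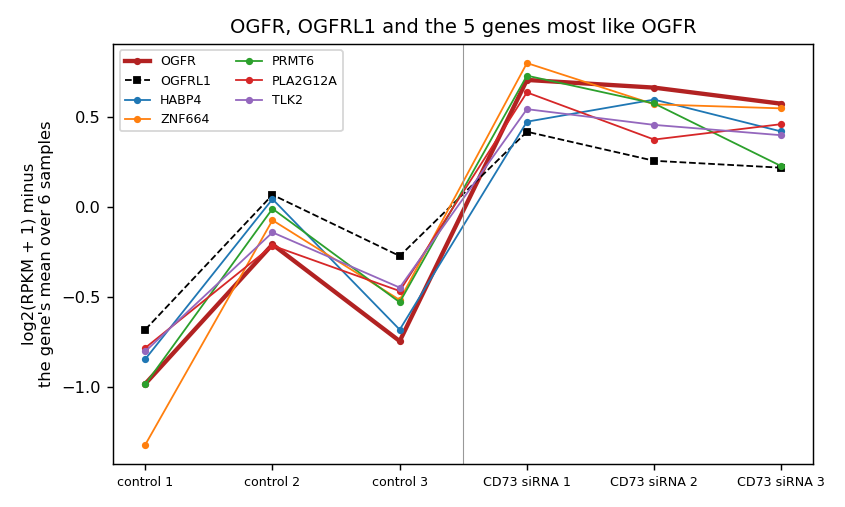
log2(RPKM + 1) minus the mean of the gene (vertical axis) in the 6 samples (horizontal axis) for OGFR, OGFRL1 and the 5 genes with the most similar pattern. Lines link the values of 1 gene and give the replicates no order. Control 1 is the lowest sample in each gene, control 2 the highest control, and the CD73 siRNA samples lie above all controls.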

How the data were processed

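Total RNA of PANC-1 cells was sequenced in 3 CD73 siRNA and 3 negative control samples. Per the labels, the authors used bcl2fastq, Bowtie2 2.2.3 and HTSeq 0.6.0 and the hg38 build. Annotation, strand setting and unit are not given in the sources used here. The deposited values were read as RPKM because, multiplied by merged exon length in GENCODE release 29, they were whole multiples of 1 step per sample (within 0.01 read) in 94.9% to 95.0% of genes under 1000 reads. The steps gave library totals and reads per gene, used only to describe precision.

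Values were compared as log2(RPKM + 1), which understates changes of low genes, in genes that reached 1 RPKM in 3 or more samples, by limma 3.58.1 (lmFit, eBayes with trend) in R 4.3.3 with Benjamini-Hochberg adjustment. Scripts were tested on simulated data. Exact permutation tests were two-sided (scipy 1.17.1). The labels number the samples within each group, and samples of the same number were taken as pairs. Deviations from group means correlated at 0.20, 0.48 and 0.55 across genes within numbers 1, 2 and 3. Between unlike numbers they correlated at -0.44 to -0.01. Centring on group means makes these negative on average once like numbers correlate positively, so they are not separate evidence for the pairing. The main fit, from which the calls come, did not use this pairing, and the replicate block did. Alternatives were a pseudocount of 0.1, median-ratio scaling, no filter, each sample left out, the replicate block and no moderation. Named genes were the members, NT5E, called genes and the most abundant gene of each list, neighbours within 500 kb (called, nearest or overlapping), the 5 most similar patterns and the 3 genes on either side of OGFR in rank. Other genes named (OPRD1, EPCAM, MUC1, CDH1, KRT7, KRT8, KRT18, KRT19, KPNA5, PCSK1, CPE, CTSL, MME, ANPEP, RANGAP1, KPNB1, RAN, CDK2, CDK4, CDK6, CCNE1, RB1, OPRM1, OPRK1, CABLES2, TPM4) were chosen after their values were seen. The members and lists were chosen with earlier results of these data known.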

Additional observations from a re-analysis of the deposited data

How the results depend on the processing

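The log2 difference of OGFR was 1.46 with a pseudocount of 0.1, 1.27 with median-ratio scaling and between 1.12 and 1.51 with 1 sample left out. OGFRL1 had 0.59 with the replicate block, past the threshold there, and between 0.40 and 0.77 with 1 sample left out. The count of changed genes was 948 with the replicate block, 216 without moderation and between 110 and 791 with 1 sample left out. That of pathway genes was 9 with the block, 0 without moderation (6 of 30 below 0.05) and between 1 and 5 with 1 sample left out. That of neighbour genes was 2 with the block, 0 without moderation (2 of 22 below 0.05) and between 0 and 1 with 1 sample left out, 0 being the count without negative control replicate 2. Without moderation ECE2, CDKN1A, CDKN1B, CCND1, MIR30C2 and NT5E were all short of the threshold (adjusted p = 0.529 each). The log2 difference of RNPEP ran from -0.16 to 0.05 with 1 sample left out, positive without CD73 siRNA replicate 3 or, at 0.04, negative control replicate 1. Fits with fewer samples have less precision, and the cause of the other changes was not tested. Median-ratio scaling called 392 genes, of which 204 were higher, against 228 before. PENK has no value under any alternative. Genes of under about 20 reads per sample, such as OGFR-AS1 and MIR30C2, are limited by depth.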
